A study of Homo sapiens with 4 samples.

Results

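The 226 genes described here give long noncoding RNAs of 3 naming families together with MALAT1, NEAT1 and GAS5. They were taken from the deposited count table by symbol (LINC and a number, SNHG and a number, or MIR with the ending HG, plus MALAT1, NEAT1, GAS5 and H19) and by a level of at least 20 estimated counts in 1 or more of the 4 libraries. Of the 19626 rows of the table, 708 matched by symbol and 226 of these reached the limit. They comprised 179 LINC genes, 25 host genes of small nucleolar RNAs (SNHG genes and GAS5), 20 microRNA host genes and the pair of nuclear RNAs MALAT1 and NEAT1. H19 stayed outside, with 7, 5.36, 6.84 and 9 counts. The members were thus selected on their counts in the same 4 libraries, and a gene that reached the limit in 1 group only had to differ between the groups. This applied to 58 members: 28 reached it in the control libraries only and 30 in the knockdown libraries only.

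The libraries were made from ES-2, an established human ovarian carcinoma line that carries the YAP1-MAML2 fusion (YM). Cells were infected with lentivirus for a control shRNA (shCtl, n = 2) or for shM2-3 (n = 2), and RNA was taken at 96 h from the first infection by the sample labels, whereas the study's methods give a shorter time of transduction. shM2-3 is directed at sequence that the fusion and wild-type MAML2 have in common, so that it can act on both, and no second shRNA against them was analysed here. Each pair of libraries came from biological replicates, and with n = 2 per group the spread rests on a pair of values.

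Long noncoding RNAs are transcribed and capped like messenger RNAs, and many are spliced, but they are not translated into a stable protein. LINC genes lie between protein-coding genes, and many are expressed at low level and in few cell types. SNHG genes carry small nucleolar RNAs (snoRNAs) in their introns: the introns release guides for the modification of ribosomal RNA, while the spliced exons are often degraded by nonsense-mediated decay. MicroRNA host genes are transcripts from which a hairpin is cut out, and the mature microRNA then pairs through its seed with target messenger RNAs. The libraries here measured the host transcripts and not the mature small RNAs.

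A mature microRNA is shown first for each of the 4 host genes that met both limits of the main test and for MIR34AHG, as RefSeq lists them on GRCh38.p14, with the seed (bases 2 to 8) in capitals. Each of these 5 has a seed of its own.
hsa-miR-34a-5p (MIR34AHG): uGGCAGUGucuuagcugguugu
hsa-miR-146a-5p (MIR3142HG): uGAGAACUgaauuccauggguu
hsa-miR-22-3p (MIR22HG): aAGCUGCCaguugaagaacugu
hsa-miR-503-5p (MIR503HG): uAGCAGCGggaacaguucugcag
hsa-miR-4435 (MIR4435-2HG): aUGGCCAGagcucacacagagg

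A set with the shared seed GAGGUAG is shown because its hosts did not move together. Another pair, from MIR100HG and MIR99AHG, shares the seed ACCCGUA.
hsa-let-7b-5p (MIRLET7BHG): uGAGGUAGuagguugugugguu
hsa-let-7a-5p (MIR100HG and MIRLET7BHG): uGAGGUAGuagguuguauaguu
hsa-let-7c-5p (MIR99AHG): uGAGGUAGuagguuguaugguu
hsa-miR-4458 (MIR4458HG): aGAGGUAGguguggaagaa
hsa-miR-100-5p (MIR100HG): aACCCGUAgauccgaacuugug
hsa-miR-99a-5p (MIR99AHG): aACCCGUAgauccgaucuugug

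The estimated counts summed to between 20051083 and 23978660 per library. MAML2, the targeted gene, was at 1436 and 1402 counts in the shCtl libraries and at 634 and 553 in the shM2-3 libraries, so that 36.2% of its RPKM (counts scaled by transcript length and library) remained. The fusion transcript carries MAML2 exons by the paper, so this value pools it with wild-type MAML2 and gives neither alone. Of 11 ovarian lineage genes 7, PAX8 and WT1 among them, stayed under an RPKM of 1. The other 4 all fell and 2 were called lower, from KRT7, an epithelial keratin gene (269 and 267 RPKM in shCtl, 108 and 107 in shM2-3), to VIM (log2 fold change -0.44). Of 6 fibroblast genes 5 were under an RPKM of 1, and PDGFRA rose from 7.58 and 7.51 to 25.2 and 24.8 RPKM. Of 5 leukocyte genes 3 were under an RPKM of 1, PTPRC among them with 0.0173 or less. The other 2 were CD68 and LYZ. CD68 was at 57.3 and 56.9 RPKM in shCtl and at 37.8 and 39.0 in shM2-3. LYZ was at 0.945 and 0.423 RPKM in shCtl and at 2.34 and 0.129 in shM2-3. The part of other cells in the level of a member was not tested. In these bulk libraries fewer cells of a kind and less RNA per cell cannot be told apart.

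Of the 226 members, 155 had an RPKM above 1 in at least 1 library and were tested by edgeR's quasi-likelihood test over 12157 such genes. Calls needed both a p of at most 0.05 after Benjamini-Hochberg adjustment and at least a 2-fold difference. By these limits 35 members were called lower in shM2-3 (22.6% of those tested, against 8.93% of all genes tested) and 25 were called higher (16.1%, against 9.24%). Of these 60 members, 41 had reached 20 counts in both groups. By adjusted p alone 64 members fell (41.3%, against 36.4% of all genes) and 49 rose (31.6%, against 36.3%), and 42 did not pass. The median size of the log2 fold change, regardless of its sign, was 0.83 for the tested members and 0.45 for all genes tested. A gene near the RPKM limit could enter this test through its higher group alone. Over all 226 members the median of the mean RPKM was 1.28, so nothing is read from these shares and sizes about the members. In a second fit over the 14090 genes with 20 or more counts, which holds all 226 members, 47 were called lower (20.8%, against 9.96%) and 42 higher (18.6%, against 10.9%). Among the 71 members under the RPKM limit it called 10 lower and 17 higher. The share of all genes under that limit was not computed, so nothing is read from these counts about the members.

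Separation of the libraries by level alone was as common among the members as elsewhere. Both shM2-3 libraries lay below both shCtl libraries in RPKM for 100 members (44.2%, against 44.7% of the 14090 genes), and above them for 91 (40.3%, against 39.3%). For the other 35 members the groups overlapped.

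The counts by class follow, and differences between classes were not tested. LINC genes moved in both directions, with 29 called lower (24.6% of 118 tested, against 8.93% of all genes) and 23 called higher (19.5%, against 9.24%). Among SNHG genes and GAS5, 4 of 24 tested were called lower and 0 higher (16.7% and 0%, against 8.93% and 9.24%), and the median log2 fold change was -0.38. At an adjusted p of 0.05 or less regardless of fold, 13 of these 24 fell (54.2%, against 36.4% of all genes) and 3 rose (12.5%, against 36.3%). For microRNA hosts 2 of 11 tested were called lower and 2 higher (18.2% each, against 8.93% and 9.24%). The plot of changes by class shows the LINC genes spread over the whole range and the SNHG genes close to 0.

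**Figure D1:**
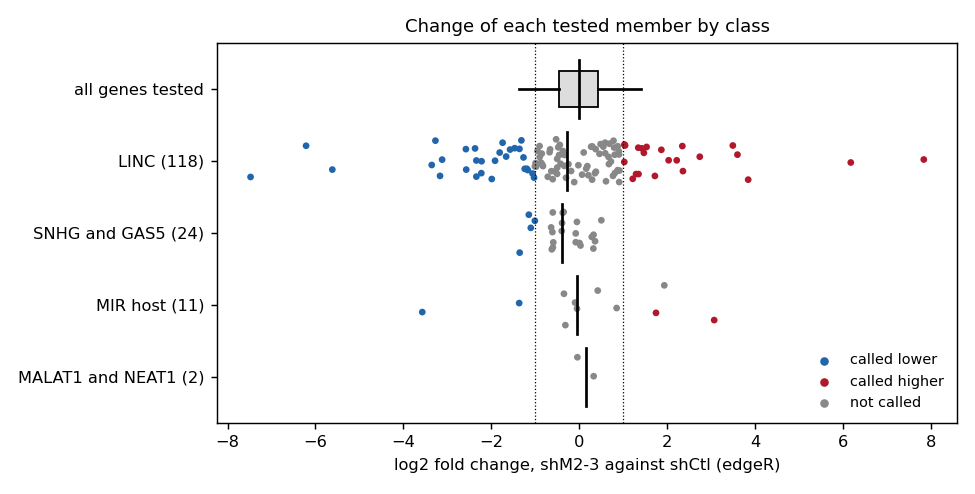
log2 fold change of each tested member (points, edgeR) by class, with the number tested in brackets and the class median as a black line; the box holds the middle 50% of all genes tested and its whiskers run from the 5th to the 95th percentile. LINC genes run from -7.48 to 7.84, while the 24 SNHG genes and GAS5 lie between -1.35 and 0.50.

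Genes of low level were called more often among all genes tested, and LINC genes are low. A gene with a mean RPKM under 2 could pass the RPKM limit of 1 through its higher group alone. The shares at that level thus depend in part on the limit. Among all tested genes with a mean RPKM under 2, 17.1% were called lower and 18.9% higher, and among the 67 LINC genes of that level 23.9% and 19.4% were. Between an RPKM of 2 and 10 the shares were 7.87% and 8.35% of all genes, and 23.4% and 21.3% of 47 LINC genes. In this middle band 11 LINC genes were called lower and 10 higher. Over all levels, 17 of the 52 called LINC genes had reached 20 counts in 1 group only and so had to differ, and nothing is read from the shares about the class. Only 4 LINC genes had a mean RPKM of 10 or more.

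Among the LINC genes that fell, LINC00707 (chromosome 10 of hg38, from 6779549 to 6842906, plus strand, 5 exons) had the lowest log2 fold change. Each shCtl library held 1555 counts of it, and the shM2-3 libraries 8 and 11. Its RPKM of 21.6 and 21.3 was second among LINC genes in shCtl cells, and 0.534% of it remained. The log2 fold change was -7.48 (SE 0.142, adjusted p = 3.23e-14, edgeR with Benjamini-Hochberg adjustment). LINC00707 thus went from one of the most abundant LINC RNAs to a level below most others in the class.

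LINC01111 and LINC00842 were nearly lost as well. LINC01111, on chromosome 8, had 87 and 65 counts in the shCtl libraries and 0 and 2 in the shM2-3 libraries, and was at least 27.9-fold lower when 3 counts per library are taken as the floor. LINC00842, on chromosome 10, had 87 and 58 counts in the shCtl libraries and 0 and 3 in the shM2-3 libraries, and was at least 26.7-fold lower. Neither gene had more than 3 counts in a shM2-3 library or fewer than 58 in a shCtl library.

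LINC01547 kept a measurable level. It had 325 and 299 counts in the shCtl libraries and 32 and 35 in the shM2-3 libraries, a log2 fold change of -3.36 (SE 0.198, adjusted p = 3.50e-09, edgeR with Benjamini-Hochberg adjustment). LINC02057 had 42 and 79 counts in the shCtl libraries and 3 and 12 in the shM2-3 libraries (log2 fold change -3.12, SE 0.579). LINC01703 had 28 and 63 in shCtl and 10 and 1 in shM2-3 (log2 fold change -3.17, SE 0.690). The groups did not overlap for either gene, but their replicates differed widely, and leaving out 1 library moved these log2 fold changes to between -4.49 and -2.38 for LINC02057 and between -5.40 and -2.38 for LINC01703. LINC02749 had 25 and 12 counts in shCtl and 2 in each shM2-3 library, and was at least 6.81-fold lower.

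LINC01425, on chromosome 21, had the highest mean RPKM of the class. Its RPKM was 36.9 and 37.6 in shCtl and 17.5 and 17.4 in shM2-3, so that 46.8% remained (log2 fold change -1.03, SE 0.0892, adjusted p = 1.94e-07, edgeR with Benjamini-Hochberg adjustment). LINC01116, which lies beyond the HOXD cluster on chromosome 2, had an RPKM of 11.9 and 11.7 in shCtl and 14.9 and 13.9 in shM2-3. It rose by a small amount (log2 fold change 0.36, SE 0.108, adjusted p = 0.00895, edgeR with Benjamini-Hochberg adjustment), and without shM2-3 replicate 1 it did not pass (adjusted p = 0.0593).

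Further LINC genes called lower were named after their values were seen. LINC02475, on chromosome 4, had an RPKM of 13.1 or more in shCtl and of 3.57 or less in shM2-3 (log2 fold change -1.91, SE 0.0937). LINC00632, the precursor from which the circular RNA CDR1-AS is known to arise, had 187 and 197 counts in the shCtl libraries and 45 and 26 in the shM2-3 libraries (log2 fold change -2.58, SE 0.243). LINC01638 was at 124 and 114 counts against 23 and 21 (log2 fold change -2.57, SE 0.298). In all 3 genes every shM2-3 library lay below 0.5 times the lower shCtl library. LINC01583 was at 308 and 341 counts against 93 and 87 (log2 fold change -1.99, SE 0.155). LINC00317, a low gene of chromosome 21 like LINC01425, was at 66 and 59 counts against 13 and 14 (log2 fold change -2.34, SE 0.404). Some calls were less certain. LINC00513, at 43 and 46 counts against 26 and 21 (log2 fold change -1.06, SE 0.392), did not pass in DESeq2 or without any 1 of the 4 libraries. LINC01816 did not pass without shCtl replicate 1 or without either shM2-3 library. LINC01023 had 24 and 28 counts in shCtl but 2 and 14 in shM2-3, and it did not pass in DESeq2 or without shM2-3 replicate 1. LINC02478 had 13 and 21 in shCtl and 1 and 6 in shM2-3 and did not pass without shCtl replicate 2 or shM2-3 replicate 1.

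Among called LINC genes whose RPKM was at least 1 in both shM2-3 libraries, LINC01711 had the highest log2 fold change, and 5 more follow it here. This single-exon gene (chromosome 20, from 58634772 to 58635738, plus strand) had 6 counts in each shCtl library and 533 and 446 in the shM2-3 libraries. Its RPKM went from 0.265 and 0.260 to 19.2 and 17.8, a level above that of the next 5 genes in shM2-3 cells. The log2 fold change was 6.18 (SE 0.226, adjusted p = 2.47e-11, edgeR with Benjamini-Hochberg adjustment).

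LINC00673, a long noncoding RNA at a locus known for pancreatic cancer risk, rose from an RPKM of 1.19 and 0.896 to 10.8 and 11.6 (log2 fold change 3.49, SE 0.137). Its span on chromosome 17 overlaps LINC00511, and reads of the overlapping parts cannot be assigned with certainty to either gene. LINC01239, on chromosome 9, rose from 21 and 27 counts to 440 and 327 (log2 fold change 3.84, SE 0.209). LINC02669, on chromosome 10, rose from 14 and 15 counts to 207 and 184 (log2 fold change 3.60, SE 0.266). For all 3 the lower shM2-3 library lay far above the higher shCtl library.

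LINC01551 rose from 35 and 28 counts to 222 and 243 (log2 fold change 2.74, SE 0.232), and it overlaps other LINC genes on chromosome 14, so that the count is uncertain. LINC00680 rose from 22 and 32 counts to 165 and 142 (log2 fold change 2.36, SE 0.269). These 6 genes had an RPKM of at most 1.19 in any shCtl library and of at least 2.08 in any shM2-3 library.

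Below these 6, and named after their values were seen, LINC00205 stood out by level. It had 574 and 577 counts in the shCtl libraries and 2809 and 2399 in the shM2-3 libraries, and its RPKM went from 3.42 and 3.38 to 13.7 and 12.9 (log2 fold change 2.03, SE 0.0607, adjusted p = 2.87e-12, edgeR with Benjamini-Hochberg adjustment). LINC02246 was at 194 and 160 counts in shCtl and at 1051 and 937 in shM2-3 (log2 fold change 2.35, SE 0.106). Like LINC00205 it lies on chromosome 21, where LINC01425, LINC00317 and LINC01547 fell. LINC01963 was at 42 and 76 counts against 290 and 314 (log2 fold change 2.22, SE 0.226). LINC00261, which lies beside the endoderm transcription factor gene FOXA2, was at 85 and 79 counts against 326 and 334 (log2 fold change 1.87, SE 0.164), while FOXA2 itself differed by -0.04 on the log2 scale. The smallest called increases, LINC00920, LINC01410, LINC02657 and LINC01145, had log2 fold changes of 1.02 to 1.04 and each fell short of the 2-fold limit under another scaling or with a library left out.

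**Figure D2:**
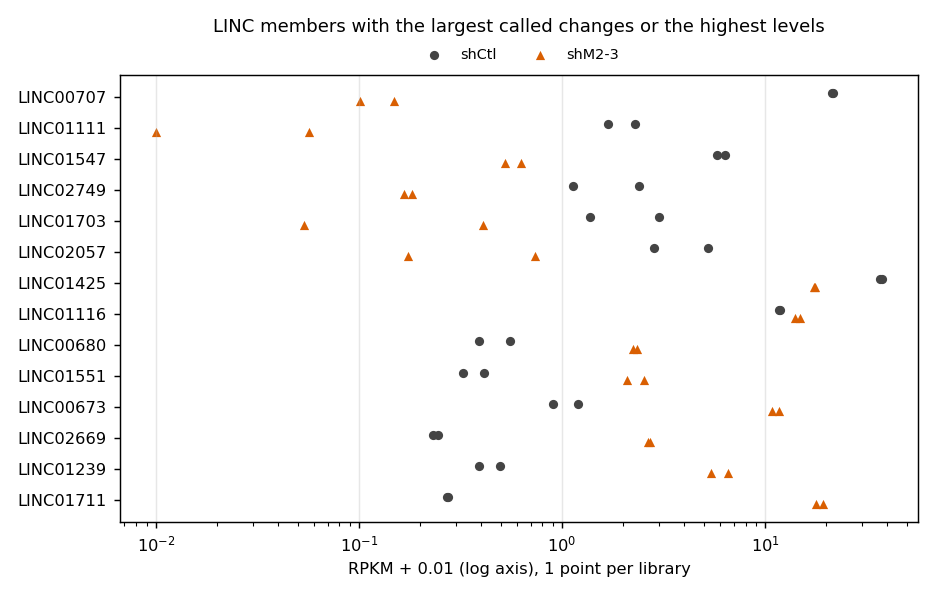
RPKM + 0.01 (log axis) in each shCtl library (circles) and each shM2-3 library (triangles) for LINC genes with the lowest and highest called changes or the highest levels, ordered by change from lowest at the top to highest at the bottom. The groups are apart for every gene plotted, from LINC00707 (21.6 and 21.3 against 0.0910 and 0.138) to LINC01711 (0.265 and 0.260 against 19.2 and 17.8), and the narrowest gap is that of LINC01116.

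LINC genes near or at 0 in one group stayed mostly under the RPKM limit and come from the fit over genes with 20 counts. LINC00607, on chromosome 2, was without a count in shCtl and had 47 and 50 counts in shM2-3, and was at least 14.7-fold higher. LINC02119 went from 0 counts in shCtl to 46 and 36, at least 12.3-fold higher. LINC02593, LINC01561, LINC00565 and LINC00626 had between 0 and 3 counts in the shCtl libraries and between 20 and 29 in the shM2-3 libraries, and their bounds lay between 7.22-fold and 7.70-fold higher. LINC00629 went the other way, with 22 and 27 counts in shCtl and 3 in each shM2-3 library, at least 8.98-fold lower. LINC00326, named because it had the highest log2 fold change of the class in the main test (7.84, SE 1.51), went from 0 counts in shCtl to 18 and 41, at least 9.13-fold higher. These genes had to differ to be members, and their RPKM in the higher group did not exceed 1.31.

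At the edge of the member limit, LINC01590 had 3 and 6 counts in the shCtl libraries and 8 and 20 in the shM2-3 libraries, and LINC02476 had 20 and 11 in shCtl and 2 and 0 in shM2-3. Just outside it, LINC01530 had 19.6 and 17.0 counts in the shCtl libraries and 8.15 and 5.66 in the shM2-3 libraries, and MIR181A2HG had 6 and 12 in shCtl and 19 and 15.0 in shM2-3.

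The nearest protein-coding gene by annotated start moved with some LINC genes. Of the 29 LINC genes called lower, 17 had a nearest gene that was tested: 6 had a neighbour called lower (35.3%) and 1 a neighbour called higher (5.88%). NCAM2 is the neighbour of 2 of these 6, so that the 6 stand for 5 distinct genes. Of the 23 called higher, 17 had a tested neighbour, with 1 called lower (5.88%) and 4 called higher (23.5%). Around 66 LINC genes that were tested and not called, 3 of 42 tested neighbours were called lower (7.14%) and 5 higher (11.9%). These shares stand beside 8.93% and 9.24% of all genes, and each rests on few genes. Leaving out members that overlap a protein-coding gene, the counts were 5 lower and 1 higher of 14 beside LINC genes called lower, and 1 lower and 4 higher of 15 beside those called higher.

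The neighbours that fell with their LINC gene, here named after their values were seen, were NCAM2, JUN, OGFRL1, ADAM12 and SLX9. NCAM2, a neural cell adhesion molecule, is nearest to both LINC01425 and LINC00317 at 738910 bases or more and had a log2 fold change of -2.04 (SE 0.0859). JUN, an AP-1 subunit, is nearest to LINC01358 and had -1.74 (SE 0.0453). The call of LINC01358 was less certain, with log2 fold changes from -1.74 to -0.74 when 1 library was left out. ADAM12, a metalloprotease gene, is nearest to LINC00601 and had -1.60 (SE 0.0613). LINC00601 was less certain too, from -1.74 to -0.84 when 1 library was left out. OGFRL1 overlaps LINC00472 and had -1.39 (SE 0.0658). FER, a tyrosine kinase gene nearest to LINC01023, went the opposite way (log2 fold change 1.06, SE 0.0886).

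Among neighbours of LINC genes that rose, SOX9, a developmental transcription factor 471784 bases from LINC00673, had a log2 fold change of 2.54 (SE 0.0513). NRIP1, a nuclear receptor corepressor gene nearest to LINC02246, had 1.69 (SE 0.0576). HMGA2, a chromatin protein gene nearest to LINC02454, had 2.80 (SE 0.0544), and THBS2, a matrix glycoprotein gene nearest to LINC01615, had 1.01 (SE 0.139). The call of LINC02454 was less certain, with log2 fold changes from 0.96 to 1.78 when 1 library was left out. PRIM2, a DNA primase subunit gene nearest to LINC00680, fell (log2 fold change -1.03, SE 0.0726). No strand was found for LINC00680, so its distance of 638835 bases to PRIM2 was taken from the middle of the gene.

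Other strongly changed LINC genes had neighbours with small differences. STX16 near LINC01711 had a log2 fold change of 0.14, DMRTA1 near LINC01239 had -0.21 (adjusted p = 0.178, edgeR with Benjamini-Hochberg adjustment) and KLF6 near LINC02669 had -0.09 (adjusted p = 0.0700, edgeR with Benjamini-Hochberg adjustment). ZFHX4 near LINC01111 had 0.42 and ZSWIM6 near LINC02057 had -0.32. PRKCQ, the gene nearest to LINC00707, had too low an RPKM to be tested.

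**Figure D3:**
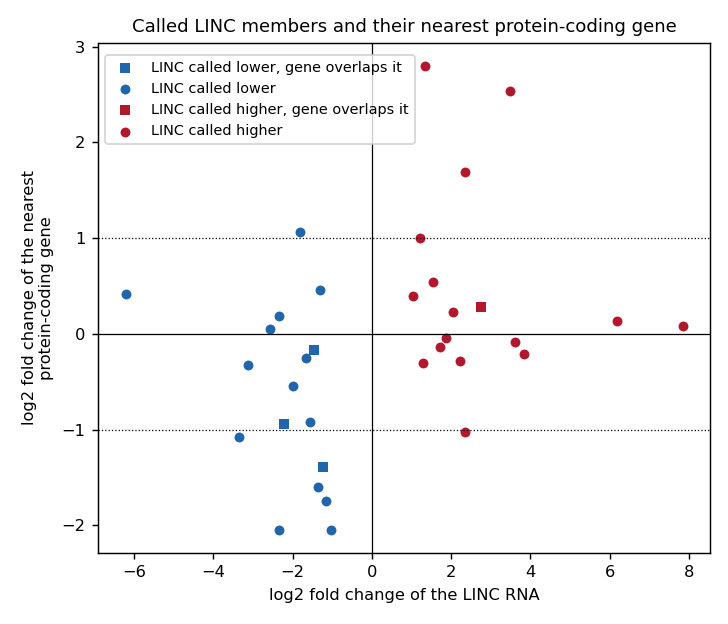
log2 fold change of the nearest protein-coding gene (y axis, edgeR) against that of the LINC gene (x axis), for the 34 called LINC genes with a tested neighbour; squares mark neighbours that overlap the LINC gene and dotted lines a fold change of 2. Points below the lower line number 6 on the left and 1 on the right, and points above the upper line 1 on the left and 4 on the right.

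LINC01547 and SLX9, a ribosome biogenesis gene, start 84 bases apart on opposite strands of chromosome 21. SLX9 had a log2 fold change of -1.08 (SE 0.105). On the other side the ITGB2 gene for the integrin β2 subunit lies 824 bases from LINC01547 and had -4.65 (SE 0.0822). ITGB2 was named after its value was seen. The window around the RefSeq start of LINC01547, from 250 bases before it to 50 after (GRCh38.p14, chr21:44939864-44940163, minus strand, all in lower case because no searched motif occurs in it), is shown because the start of SLX9 lies close by.
LINC01547: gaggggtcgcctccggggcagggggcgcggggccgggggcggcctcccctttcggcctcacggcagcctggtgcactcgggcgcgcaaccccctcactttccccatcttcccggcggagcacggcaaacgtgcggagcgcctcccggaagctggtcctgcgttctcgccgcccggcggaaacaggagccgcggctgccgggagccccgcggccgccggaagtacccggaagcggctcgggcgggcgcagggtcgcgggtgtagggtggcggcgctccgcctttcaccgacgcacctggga

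LINC00607 lies 175489 bases from FN1, the fibronectin gene, which had a log2 fold change of 4.22 (SE 0.0275). The protein-coding gene whose start is nearest to LINC00607 is MREG, with 0.79 (SE 0.164), which passed the adjusted p but not the fold limit. MIR503HG and LINC00629 lie 3127 bases apart on the X chromosome, and both fell. The gene nearest to either is HPRT1, a purine salvage enzyme gene, with a log2 fold change of -1.41 (SE 0.107). Of other LINC members at or near 0 in shCtl, the nearest genes of 3 were called higher: SAMD11 beside LINC02593 had 3.57 (SE 0.272), PLPP4 beside LINC01561 had 2.70 (SE 0.174) and GDNF beside LINC02119 had 1.38 (SE 0.101). RPS12, nearest to LINC00326, had 0.09, and the nearest genes of LINC00565 and LINC00626 were not tested. These pairs were chosen after their values were seen.

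The letters GGAATG, the core of the site that TEAD factors bind, were searched on both strands of the 300-base windows around RefSeq starts. They occurred in 3836 of all 27305 windows. Among LINC genes with a window they occurred in 14 of 111 (12.6%), in 3 of 23 called lower (13.0%) and in 3 of 13 called higher (23.1%). The AP-1 letters TGANTCA occurred in 7.76% of all windows and 14.4% of LINC windows, with 3 of 23 called lower and 1 of 13 called higher. The E-box CACGTG occurred in 7.43% of all windows, in 3 of 23 LINC genes called lower and in 0 of 13 called higher. LINC00707 is not in the window table. With so few windows these counts are descriptions. The window of LINC00673 (GRCh38.p14, chr17:72592755-72593054, minus strand) holds 1 TEAD match, in capitals, and is shown because the nearest gene, SOX9, rose with this LINC gene.
LINC00673: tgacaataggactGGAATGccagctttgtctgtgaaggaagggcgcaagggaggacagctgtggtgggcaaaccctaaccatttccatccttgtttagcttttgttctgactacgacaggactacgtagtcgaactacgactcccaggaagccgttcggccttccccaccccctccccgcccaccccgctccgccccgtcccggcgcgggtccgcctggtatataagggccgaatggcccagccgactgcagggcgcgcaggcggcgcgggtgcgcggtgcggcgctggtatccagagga

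Of the 25 snoRNA host genes all reached 20 counts in both groups. SNHG1 had 2638 and 2839 counts in the shCtl libraries and 1288 and 1078 in the shM2-3 libraries. It hosts SNORD22 and SNORD25 to SNORD31, and 37.3% of its RPKM remained (log2 fold change -1.35, SE 0.0556, adjusted p = 7.84e-11, edgeR with Benjamini-Hochberg adjustment). SNHG3, the host of SNORA73A and SNORA73B, had 2862 and 2945 counts in the shCtl libraries and 1507 and 1387 in the shM2-3 libraries (log2 fold change -1.15, SE 0.0483). Both genes had 1078 counts or more in every library, and each fell to under a fold of 0.5.

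SNHG12, the host of SNORA16A, SNORA44, SNORA61 and SNORD99, had 392 and 443 counts in the shCtl libraries and 259 and 172 in the shM2-3 libraries (log2 fold change -1.10, SE 0.142). SNHG21, the host of SCARNA15, had 67 and 88 counts in the shCtl libraries and 49 and 36 in the shM2-3 libraries (log2 fold change -1.01, SE 0.308). Without shM2-3 replicate 2 neither met the limits, and 2 of these 4 calls were left. SNHG3 overlaps RCC1, which shares its promoter region and had a log2 fold change of -0.77 (SE 0.0626), and SNHG12 and SNHG21 overlap protein-coding genes too, so that their counts are uncertain. SNHG1 overlaps no annotated gene, and SLC3A2, the amino acid transporter subunit gene that starts 51 bases from it on the other strand, differed by -0.06 on the log2 scale (adjusted p = 0.351, edgeR with Benjamini-Hochberg adjustment).

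Smaller decreases passed the adjusted p for 9 others: SNHG30, SNHG18, SNHG20, SNHG15, SNHG28, SNHG8, SNHG4, SNHG7 and SNHG5, with log2 fold changes between -0.64 and -0.35. SNHG18, the host of SNORD123, had 858 and 875 counts in the shCtl libraries and 638 and 602 in the shM2-3 libraries. SNHG8, the host of SNORA24, had 1093 and 1044 in shCtl and 869 and 701 in shM2-3.

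The most abundant snoRNA hosts were not among those that fell. GAS5, the growth arrest gene that carries 11 snoRNAs, had the highest RPKM of the members, at 322 and 340 in shCtl and 324 and 321 in shM2-3 (log2 fold change 0.03, SE 0.0414, adjusted p = 0.537, edgeR with Benjamini-Hochberg adjustment). SNHG29 had an RPKM of 225 and 228 in shCtl and 213 and 222 in shM2-3 (log2 fold change 0.01, SE 0.0390, adjusted p = 0.895, edgeR with Benjamini-Hochberg adjustment). For both the difference was smaller than its standard error. GAS5 overlaps ZBTB37, a zinc finger gene with a log2 fold change of -1.07 (SE 0.0917), and its count is uncertain to that extent. SNHG32, the host of SNORD48 and SNORD52, rose slightly, from an RPKM of 143 and 150 to 177 and 173 (log2 fold change 0.33, SE 0.0440). SNHG16 and SNHG14, the long imprinted host of the SNORD115 and SNORD116 clusters, rose by similar amounts (log2 fold changes 0.32 and 0.29). Changes of snoRNA hosts thus ranged from -1.35 to 0.50 on the log2 scale.

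**Figure D4:**
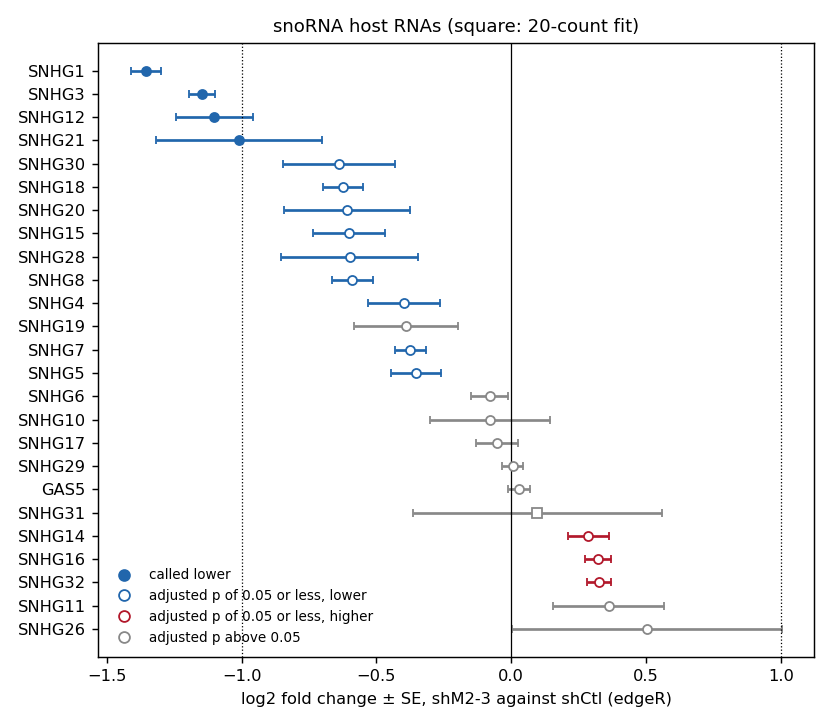
log2 fold change with its SE (edgeR, x axis) of the 25 snoRNA host genes, ordered from lowest at the top to highest at the bottom; filled points met both limits, open coloured points the adjusted p alone, grey points neither, and the square is from the 20-count fit. SNHG1, SNHG3, SNHG12 and SNHG21 lie at or below -1.01 and no gene lies above 0.50.

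Many snoRNA hosts begin with an oligopyrimidine tract, a C followed by pyrimidines, which ribosomal protein genes also use and through which translation responds to growth signals. A C and 4 pyrimidines stood at the RefSeq start of 6 of 23 snoRNA host genes with a window (26.1%), against 4.04% of all windows. SNHG12, SNHG18, SNHG4 and SNHG5 of this set fell, SNHG32 rose and SNHG19 did not pass (log2 fold change -0.39, SE 0.193). SNHG1, which fell most, begins with a C but did not meet this pattern. The first 20 bases of the RNA, as DNA letters, are printed with the 5 tested bases in capitals.
SNHG12: CCTTTctccccgccgcattc
SNHG18: CTCCTcctcctcctcctccc
SNHG5: CTTTTacgtcggccttcgcg
SNHG32: CTTTTtgcgaagtgggctcg
SNHG1: CTCATttttctactgctcgt
SNHG3: GATTCtctaactgcgcatgc

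Genes for proteins that assemble and package snoRNAs were read as a list. Of 15, 9 fell and 1 rose by adjusted p (against 36.4% and 36.3% of all genes tested), and 5 did not pass. Of these genes 2 were called lower, and the median log2 fold change was -0.35 against -0.0037 for all genes tested. RUVBL2, an ATPase of the assembly complex, had an RPKM of 75.7 and 76.0 in shCtl and 25.5 and 26.8 in shM2-3 (log2 fold change -1.47, SE 0.0483). ZNHIT6, a box C/D assembly factor, had -1.07 (SE 0.0693). FBL, the methyltransferase of box C/D snoRNPs, had -0.89 and NHP2 of box H/ACA snoRNPs -0.94. NOP58, another box C/D protein, was at the upper end with 0.15 (SE 0.0554).

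Of 77 ribosomal protein genes, 26 fell and 16 rose by adjusted p (against the same 36.4% and 36.3%), 0 were called in either direction, and the median was -0.03. They ran from RPS26 (-0.92) to RPS27 (0.35). Of 14 nonsense-mediated decay genes, which limit the spliced RNAs of many snoRNA hosts, 5 fell and 7 rose (against 36.4% and 36.3%), with a median of 0.19. The differences between these lists were not tested. UPF1, the central helicase, had the lowest value (-0.52, SE 0.0454) and SMG6, the endonuclease, the highest (1.24, SE 0.0463).

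The microRNA host genes held changes in both directions, and of the called ones MIR503HG and MIR3142HG reached 20 counts in 1 group only. MIR503HG, which encodes miR-503, had 95 and 134 counts in the shCtl libraries and 11 and 10 in the shM2-3 libraries (log2 fold change -3.57, SE 0.370, adjusted p = 1.19e-06, edgeR with Benjamini-Hochberg adjustment). MIR4435-2HG had 1196 and 1078 counts in the shCtl libraries and 511 and 463 in the shM2-3 libraries (log2 fold change -1.37, SE 0.0825). Its span on chromosome 2 from 111006015 to 111523376 includes BCL2L11, which encodes the apoptosis regulator BIM, so that its count is uncertain. For both hosts the shM2-3 libraries lay below 0.5 times the lower shCtl library.

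MIR22HG and MIR3142HG rose. MIR22HG, the host of miR-22, had 157 and 194 counts in the shCtl libraries and 710 and 592 in the shM2-3 libraries (log2 fold change 1.75, SE 0.118, adjusted p = 1.44e-08, edgeR with Benjamini-Hochberg adjustment). It overlaps WDR81, which had a log2 fold change of 0.95 (SE 0.0760), so that its count is uncertain. MIR3142HG spans the hairpins of miR-3142 and of miR-146a, a microRNA that NF-κB induces, and had 16 and 9 counts in the shCtl libraries and 125 and 109 in the shM2-3 libraries (log2 fold change 3.07, SE 0.359).

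MIR34AHG, the host of miR-34a and a known p53 target, was without a count in shCtl and had 102 and 77 counts in shM2-3, and was at least 26.9-fold higher. At an RPKM of 0.857 and 0.715 it was under the limit of the main test. H6PD, the nearest protein-coding gene on the other strand, had a log2 fold change of 1.10 (SE 0.0447). MIR3681HG also had 0 counts in shCtl, with 30 and 11 in shM2-3, at least 6.05-fold higher.

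Hosts of the GAGGUAG seed differed among themselves. MIRLET7BHG had 26 and 30 counts in the shCtl libraries and 72 and 91 in the shM2-3 libraries and rose in the 20-count fit (log2 fold change 1.38, SE 0.337). MIR4458HG had 108 and 104 in shCtl and 173 and 141 in shM2-3 (log2 fold change 0.42, adjusted p = 0.0583, edgeR with Benjamini-Hochberg adjustment). MIR99AHG had 34 and 36 in shCtl and 37 and 44 in shM2-3 (0.05 in the 20-count fit). MIR100HG fell slightly, from an RPKM of 8.68 and 8.95 to 6.79 and 6.75 (log2 fold change -0.32, SE 0.0553), although it encodes the same let-7a sequence as MIRLET7BHG.

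Among further hosts, MIR31HG rose, MIR210HG fell by a small amount, and MIR155HG and MIR17HG did not pass. MIR210HG, the host of the hypoxia microRNA miR-210, had 411 and 394 counts in the shCtl libraries and 379 and 320 in the shM2-3 libraries, in libraries of unequal depth (log2 fold change -0.35, SE 0.106), and it did not pass without shCtl replicate 1 (adjusted p = 0.0629) or shM2-3 replicate 2 (adjusted p = 0.0523, both edgeR with Benjamini-Hochberg adjustment). MIR31HG rose from 62 and 75 to 146 and 127 counts (log2 fold change 0.85, SE 0.220). MIR155HG had 144 counts in each shCtl library and 146 and 151 in shM2-3, and MIR17HG, the host of the miR-17 cluster, had 65 and 46 in shCtl and 43 and 56 in shM2-3. Neither passed the test, with log2 fold changes of -0.09 and -0.32 (the latter from the 20-count fit).

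**Figure D5:**
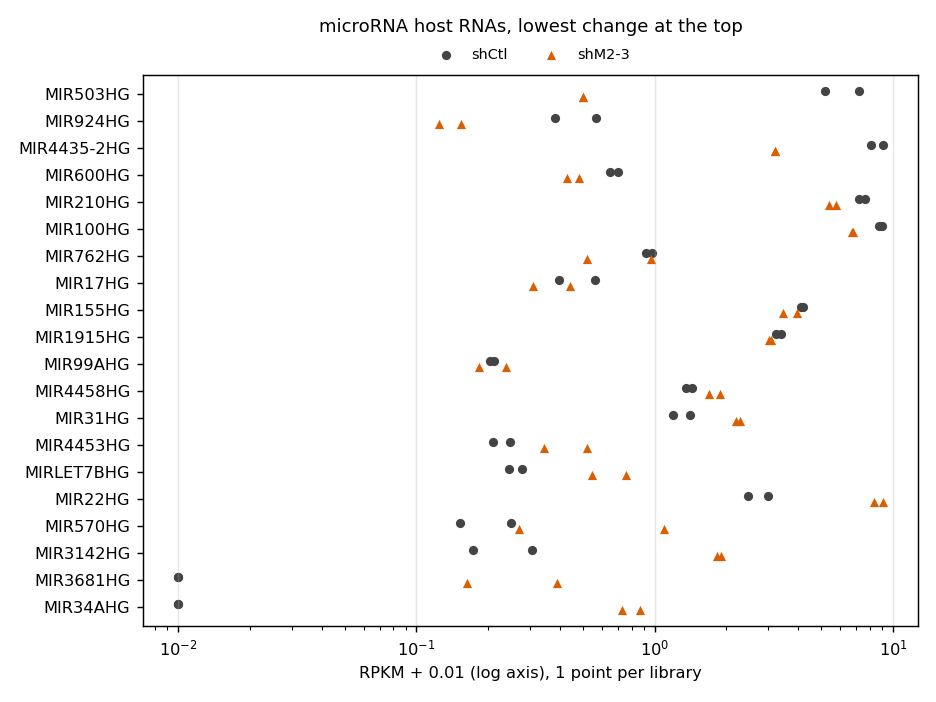
RPKM + 0.01 (log axis) in each shCtl library (circles) and each shM2-3 library (triangles) of the 20 microRNA host genes, from the lowest log2 fold change of the 20-count fit at the top to the highest at the bottom. MIR503HG falls to 0.489 and 0.491, and MIR34AHG is at 0 in both shCtl libraries, plotted at 0.01.

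Of 15 genes of microRNA processing, 3 fell and 9 rose by adjusted p (against 36.4% and 36.3% of all genes tested), 1 was called higher, and the median log2 fold change was 0.33. DGCR8, the partner of DROSHA in the nuclear cut, had an RPKM of 2.57 and 3.24 in shCtl and 9.35 and 9.53 in shM2-3 (log2 fold change 1.76, SE 0.0984). DROSHA itself had 0.09 and DICER1 0.12, and neither passed. PRKRA, a DICER1 partner, had the lowest value (-0.98, SE 0.0769).

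MALAT1, an abundant RNA of nuclear speckles, had 5033 and 5338 counts in the shCtl libraries and 6086 and 5056 in the shM2-3 libraries. Its RPKM was 24.5 and 25.5 in shCtl and 24.2 and 22.2 in shM2-3 (log2 fold change -0.04, SE 0.0467, adjusted p = 0.441, edgeR with Benjamini-Hochberg adjustment). NEAT1, the scaffold of paraspeckles, rose from 10115 and 10550 counts to 15637 and 13053 (log2 fold change 0.33, SE 0.0424, adjusted p = 1.01e-05, edgeR with Benjamini-Hochberg adjustment). These neighbours on chromosome 11 thus stood apart by a small amount. Of 10 paraspeckle protein genes 2 fell and 5 rose by adjusted p (against 36.4% and 36.3% of all genes tested), 0 were called, and they ran from DAZAP1 (-0.35) to SFPQ (0.61), an RNA-binding core protein of the paraspeckle.

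The annotated spans of the members limit single values. Of 226 members, 135 overlap another annotated gene and 51 a protein-coding gene. The libraries did not keep strand, and reads from overlapping parts cannot be told apart.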

How the data were processed

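RNA of ES-2 cells with shCtl (n = 2) or shM2-3 (n = 2) was analysed, grouped by the sample labels. Per the submitters' processing notes, reads were aligned to hg38 with HISAT2 2.0.4 and quantified in Partek 7.18. The authors deposited estimated counts per RefSeq gene, which are not normalized (42.4% to 48.6% of values per library were whole numbers), and RPKM values, which are these counts divided by gene length and library depth. The members and lists were chosen with earlier results of these data known.

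After rounding of the estimated counts, edgeR 4.0.16 (R 4.3.3; TMM factors, quasi-likelihood test, no block) was run on genes whose RPKM exceeded 1 in any library, with Benjamini-Hochberg adjustment over all of them. Members below that limit were taken from the same test over genes with 20 or more counts in at least 1 library. The SE is the log2 fold change divided by the square root of F. A bound takes 3 counts per library in the low group, scaled by library size. The fit was tested on simulated data. The common biological coefficient of variation was 0.0485.

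Genes named were MAML2, MALAT1, NEAT1, GAS5 and H19; per class, the 6 lowest and 6 highest called members whose RPKM in the higher group was never below 1, and the 3 highest in mean RPKM; members nearest the 20-count limit; members with no more than 3 counts per library in a group and 20 or more in the other; the nearest gene of each LINC gene so chosen; and the ends of each list. Further hosts were named for their class or seed, and the RPKM bands were set, after values had been seen. For 1 LINC gene the nearest gene is not reported here. Positions came from GENCODE release 44 for 194 members and from RefSeq for 32. Where no strand was found for a RefSeq position, the middle of the gene stood for its start. Alternatives were DESeq2 1.42.0, limma 3.58.1 on log2(RPKM + 0.1) and log2(RPKM + 1), total counts, other filters and fold limits, a replicate block, and fits without each library. The labels give the same replicate numbers in both groups; deviations of same-numbered libraries had a correlation of -0.0081, so they were not treated as pairs.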

Additional observations from a re-analysis of the deposited data

How the results depend on the processing

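Of 60 called members, 33 met both limits under every alternative tool, scaling and filter and without each library, and 48 kept an adjusted p of 0.05 or less. With log2(RPKM + 1), which shrinks changes of low genes, 21 members were called lower and 14 higher (LINC genes 17 and 12, SNHG genes and GAS5 2 lower). Over all genes 724 were then called lower and 596 higher, against 1086 and 1123 in the main test. Filters that admit more genes raised the calls higher to 42 (20 counts; LINC 37, microRNA hosts 5) and 41 (no filter; LINC 36, microRNA hosts 5). Calls higher over all genes rose under these filters too, from 1123 to 1529 (20 counts) and 1658 (no filter). At a fold limit of 1.5, 39 members were called higher (LINC 36) and 10 SNHG genes and GAS5 lower. The share of all genes at that fold limit was not computed. With no fold limit 64 members were lower and 49 higher: LINC genes 47 and 42, SNHG genes and GAS5 13 and 3, microRNA hosts 4 lower.

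Leaving out 1 library, members called lower ranged from 30 to 33 and higher from 22 to 27, LINC genes from 25 to 27 and from 20 to 24, and SNHG genes and GAS5 called lower from 2 to 4, with 2 without shM2-3 replicate 2. The lone library of a group is then assumed to vary like the other group. MAML2 ranged from -1.43 to -1.37.

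With the replicate block 35 members were called lower and 25 higher, as without it, and it changed no other call of a class. Of 340 recomputed values of named members 322 kept their direction and their side of the adjusted p, and 5 fell short of it (LINC01116 once, MIR210HG and SNHG21 with 2 each), all with a library left out. The other 13 changed sign around 0 and passed in no fit. GAS5 had log2 fold changes of -0.0060 with total counts, -0.0015 with no filter, -0.0361 with log2(RPKM + 0.1) and -0.0360 with log2(RPKM + 1), and ranged from -0.0063 to 0.0658 with a library left out. SNHG29 had -0.0296, -0.0249, -0.0603 and -0.0601 in the same order and -0.0151 in the 20-count fit, and ranged from -0.0288 to 0.0428. MALAT1 ranged from -0.0975 to 0.0145. At this depth members with few counts carry wide errors, and bounds on fold changes rest on the chosen floor of 3 counts.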
